A study of Mus musculus with 8 samples.

Results

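The genes described here encode the proteasome, the protease complex that degrades ubiquitin-tagged proteins in every cell. They were taken by name from the GENCODE M21 annotation of the mouse genome build mm10: protein-coding genes of chromosomes 1 to 19 whose symbol runs from Psma to Psmg followed by a number. The rule found 49 genes among 20722. They comprised 8 alpha and 11 beta subunits of the core particle, 6 ATPases and 13 non-ATPases of the regulatory particle, 5 activators, 1 inhibitor and 4 assembly chaperones. The remaining gene, Psmc3ip, matches the name pattern but encodes a meiotic recombination factor, and it was kept as the rule demands and is counted apart by role.

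The core particle is a barrel of stacked alpha and beta rings, and the beta rings carry the proteolytic sites inside the barrel. The regulatory particle caps the barrel, binds ubiquitin chains, removes them and uses its ATPase ring to unfold and feed the substrate inward. H3K36me3, trimethylation of lysine 36 on histone H3, is laid down by the methyltransferase SETD2, which travels with elongating RNA polymerase II, so the mark lies over the bodies of transcribed genes and becomes denser towards their ends.

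H3K36me3 was measured by ChIP-seq in fibroblasts of mid-gestation mouse embryos (MEFs) of the reprogrammable i4F-B strain, which carries a doxycycline-inducible cassette for the 4 factors OCT4, SOX2, KLF4 and MYC (OSKM). All 4 conditions were kept for 72 h in medium for induced pluripotent stem cells and came from 1 embryo line: MEF (no doxycycline, no added vitamin B12), MEF B12 (2 µM vitamin B12), OSKM (1 µg/ml doxycycline) and OSKM B12 (both agents). 1 library of H3K36me3 and 1 of input were made per condition, so no difference below has a replicate check or a test, and each comparison sets 1 library against another. Doxycycline itself and the factors it induces cannot be told apart, and a culture induced for 72 h is a mixture of cells at different stages.

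The H3K36me3 libraries held between 29046913 and 33399267 tags and their inputs between 34524486 and 36150875. Of 10 fibroblast markers, 9 were covered by peaks over at least 10% of their body in every library, while Twist1 had no peak. None of 6 pluripotency markers and none of 5 epithelial markers reached that level in any library. Among 4 endothelial markers Tek reached 26.6% in OSKM B12 and no other library had one at the level, and of 4 haematopoietic markers Cd68 and Csf1r were covered in all 4 libraries while Ptprc was at 0. The part of other cell types in the results was not tested.

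The covered share is the percentage of a gene body, taken as the longest protein-coding transcript, that lies in a peak of that library. The density is the authors' peak pileup per 1000000 tags, summed over the bases in peaks and divided by the length of the body. It is a level per base of the whole body, bases outside peaks included, so it depends on the transcript chosen. A ratio of densities is given with a 95% range that covers counting error only, from the number of fragments the pileup stands for.

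Proteasome genes carried more H3K36me3 than most genes in all 4 libraries. At least 50% of the body was covered in 34 of the 49 in MEF, 69.4%, against 22.2% of all protein-coding genes. The numbers were 36 in MEF B12 (background 24.3%), 21 in OSKM (background 11.9%) and 35 in OSKM B12 (background 24.6%). Their mean covered share was 56.8% (MEF), 58.7% (MEF B12), 41.9% (OSKM) and 58.4% (OSKM B12), so OSKM was the lowest library and the other 3 lay close together. The mean density followed the same split, at 0.399 (MEF), 0.471 (MEF B12), 0.222 (OSKM) and 0.480 (OSKM B12). A mean covered share of at least 10% over the 4 libraries was reached by 44 of the 49, against 43.3% of all genes. These 44 enter the comparisons below, except that summed densities take in all 49. Among genes at that level the gap was smaller. At least 50% of the body was covered in 77.3% of the members against 51.3% of all such genes in MEF. In OSKM it was 47.7% against 27.5%.

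**Figure D1:**
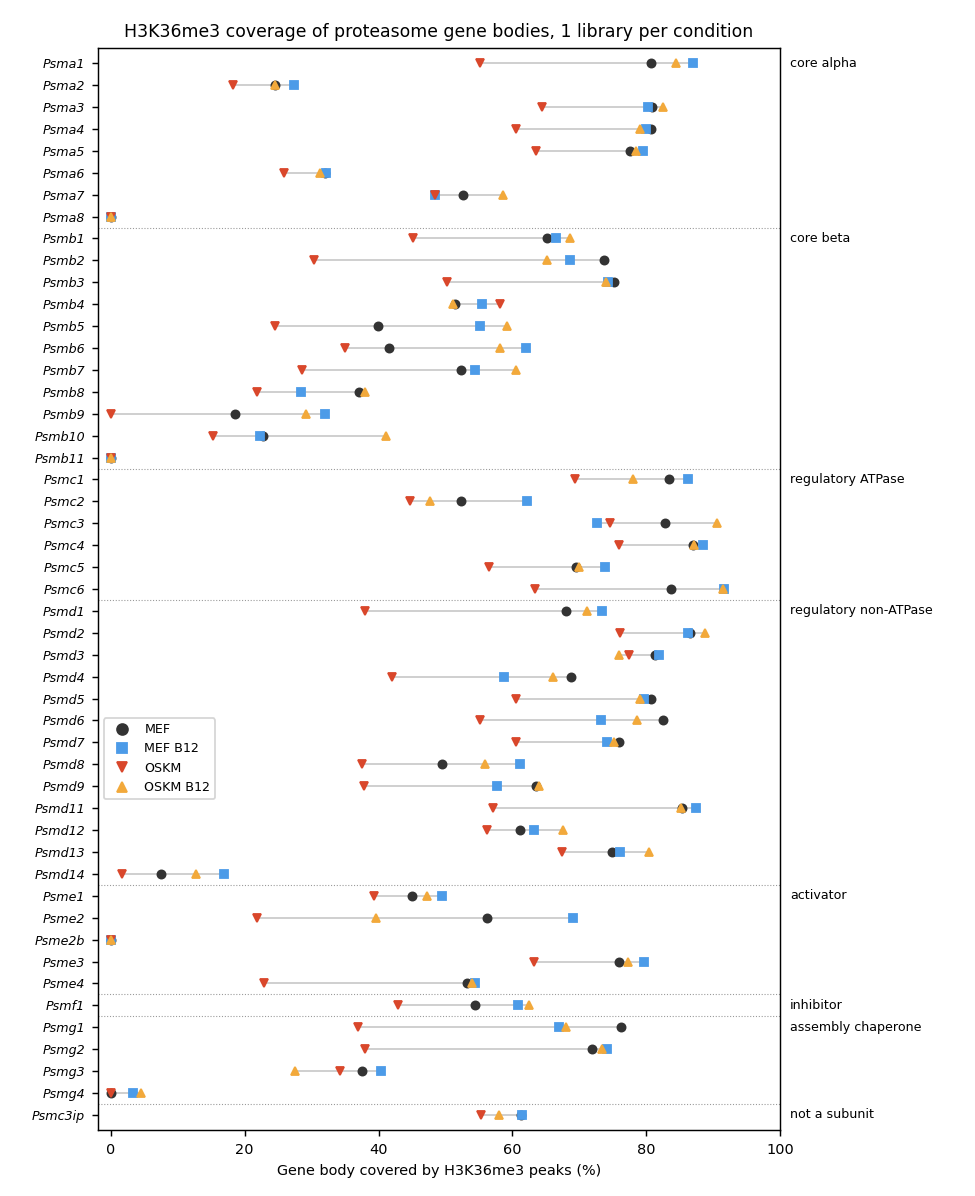
Share of each proteasome gene body lying in H3K36me3 peaks (x axis, percent) for all 49 genes, grouped by role, with 1 point per library and a grey line from the lowest to the highest library. The OSKM triangle is the lowest point for most genes, Psmb4 is the gene whose covered share was higher in OSKM than in MEF, and Psma8, Psmb11 and Psme2b sit at 0 in every library.

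The 5 genes outside that set had little or no signal. Psma8, the alpha subunit of the testis, Psmb11, the beta subunit of thymic epithelium, and Psme2b, a single-exon relative of the activator gene Psme2, had no peak in any library. Psmb11 starts 7287 bases from the start of Psmb5 on chromosome 14, and Psmb5 was covered in every library, so of these neighbouring genes 1 was marked and the other was not. Psmg4, an assembly chaperone, was at 0 in MEF and OSKM, 3.33% in MEF B12 and 4.47% in OSKM B12. Psmd14, the deubiquitinase of the regulatory particle, was covered over 7.51% of its 88683 bases (MEF), 16.9% (MEF B12), 1.70% (OSKM) and 12.8% (OSKM B12). It was the least covered member among the general subunits of the regulatory particle, and its OSKM value was the lowest of the 4. Its OSKM B12 to OSKM density ratio of 8.21 (6.43 to 10.5) was above that of any gene in the set, and was 1.25 on shared bases.

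The regulatory ATPases were the most densely marked role. Their mean density was 0.615 (MEF), 0.720 (MEF B12), 0.360 (OSKM) and 0.775 (OSKM B12), and the median of the 6 stood at the 91.4 percentile of all 8966 genes with a mean covered share of at least 10% in MEF. Psmc1 had a density of 0.758 (MEF), 0.792 (MEF B12), 0.418 (OSKM) and 0.850 (OSKM B12). Psmd3 and Psmd2, non-ATPase subunits of the regulatory particle, gave 0.778 and 0.707 in MEF, 0.875 and 0.818 in MEF B12, 0.496 and 0.425 in OSKM, and 0.945 and 0.820 in OSKM B12. Psmd3, Psmc1 and Psmd2 were the 3 highest members in MEF, and Psmb9, Psmb10 and Psma2 the 3 lowest of the 44. In the order of the 44 densities in MEF, 40 of the 43 neighbouring pairs lay within the counting range of their ratio, so single places in that order carry little information.

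The beta subunits were covered less than the regulatory particle. Their mean covered share was 43.4% (MEF), 47.2% (MEF B12), 28.1% (OSKM) and 49.6% (OSKM B12) over all 11. All 8 alpha subunits reached a mean of 53.6%, 54.3%, 42.0% and 54.9% in the same order. The unmarked Psma8 and the long bodies of Psma2 and Psma6 pulled the alpha mean down. The beta mean takes in the unmarked Psmb11. The median beta body was 4247 bases, against 12783.5 for the regulatory ATPases and 16675 for the non-ATPases. The part of body length in the differences between roles was not tested. For Psma2 the longest transcript spans 57465 bases, overlaps AW209491 and was covered over 24.5% in MEF, whereas its APPRIS principal transcript of 14397 bases was covered over 75.9% (MEF), 80.4% (MEF B12), 57.2% (OSKM) and 76.5% (OSKM B12). Its level thus depended on the choice of transcript, and OSKM was the lowest library with either. In all, 10 of the 49 bodies overlapped another protein-coding gene, Psmc3 with Slc39a13, Psmb9 with Tap1 and Psmb7 with Nek6 among them, and peaks there cannot be assigned to 1 gene.

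Within the gene bodies the mark left the start free and filled the end. Over the 44 genes the first 5 of 20 equal bins of the body were covered by 22.8% on average in MEF and 10.6% in OSKM, and the last 5 by 88.9% and 73.6%. The mean over all genes in the last 5 bins was 74.1% in MEF and 53.9% in OSKM. The median distance from the start to the first covered base was 2074 bases (MEF), 2096 (MEF B12), 2857 (OSKM) and 2151 (OSKM B12), shorter than the 3634, 3394, 4624 and 3308 bases of all genes. The bodies were shorter as well, with a median of 11638 bases for the 44 genes and 20868 for all genes. The end of the gene lay inside a peak for 39 of the 44 (MEF), 39 (MEF B12), 35 (OSKM) and 40 (OSKM B12), where 66.0%, 69.3%, 44.1% and 67.7% of all genes had theirs in one. Exon bases were covered more than intron bases in each library, at 72.9% against 61.4% in MEF and 61.0% against 40.3% in OSKM. Over all genes the difference was wider, at 70.1% against 39.4% in MEF and 51.5% against 23.9% in OSKM.

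**Figure D2:**
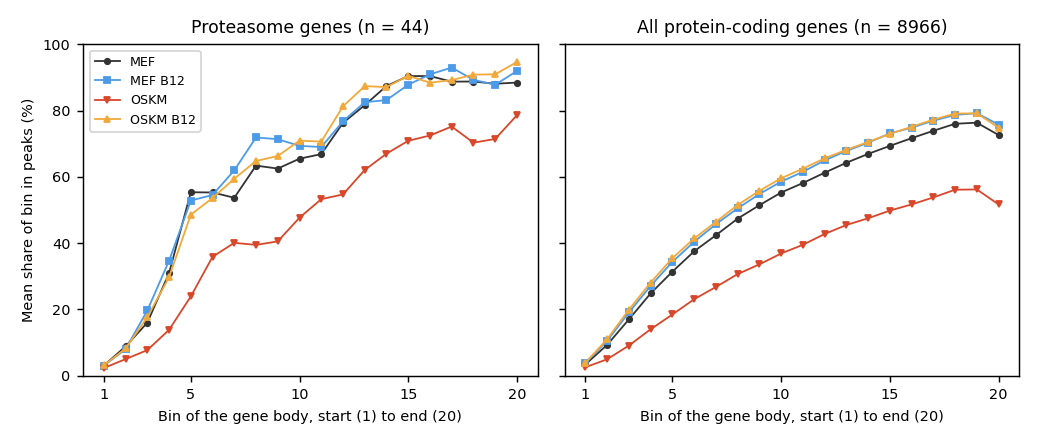
Mean share of each of 20 equal bins of the gene body lying in peaks (y axis, percent), from the start (bin 1) to the end (bin 20), for 44 proteasome genes (left) and 8966 protein-coding genes (right), with 1 line per library. Coverage climbs from below 4% in the first bin in every line, and the OSKM line runs below the other 3 in both panels.

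In OSKM the covered stretches were also broken into more pieces. The 44 genes were touched by 136 peaks (MEF), 130 (MEF B12), 215 (OSKM) and 129 (OSKM B12), and 23 of them had more peaks in OSKM than in MEF (background 45.5%) while 6 had fewer (background 31.1%). The mean per gene was 3.09 peaks in MEF and 4.89 in OSKM, against 6.14 and 6.54 over all genes. The median longest covered stretch was 6526.5 bases in MEF and 3720.5 in OSKM. Psma1, an alpha subunit, was covered by 2 peaks (MEF), 1 (MEF B12), 7 (OSKM) and 1 (OSKM B12). Of the bases covered in MEF, 65.0% were covered in OSKM as well, against 58.7% over all genes, and 97.1% of the OSKM bases lay in MEF peaks, against 93.6% over all genes.

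**Figure D3:**
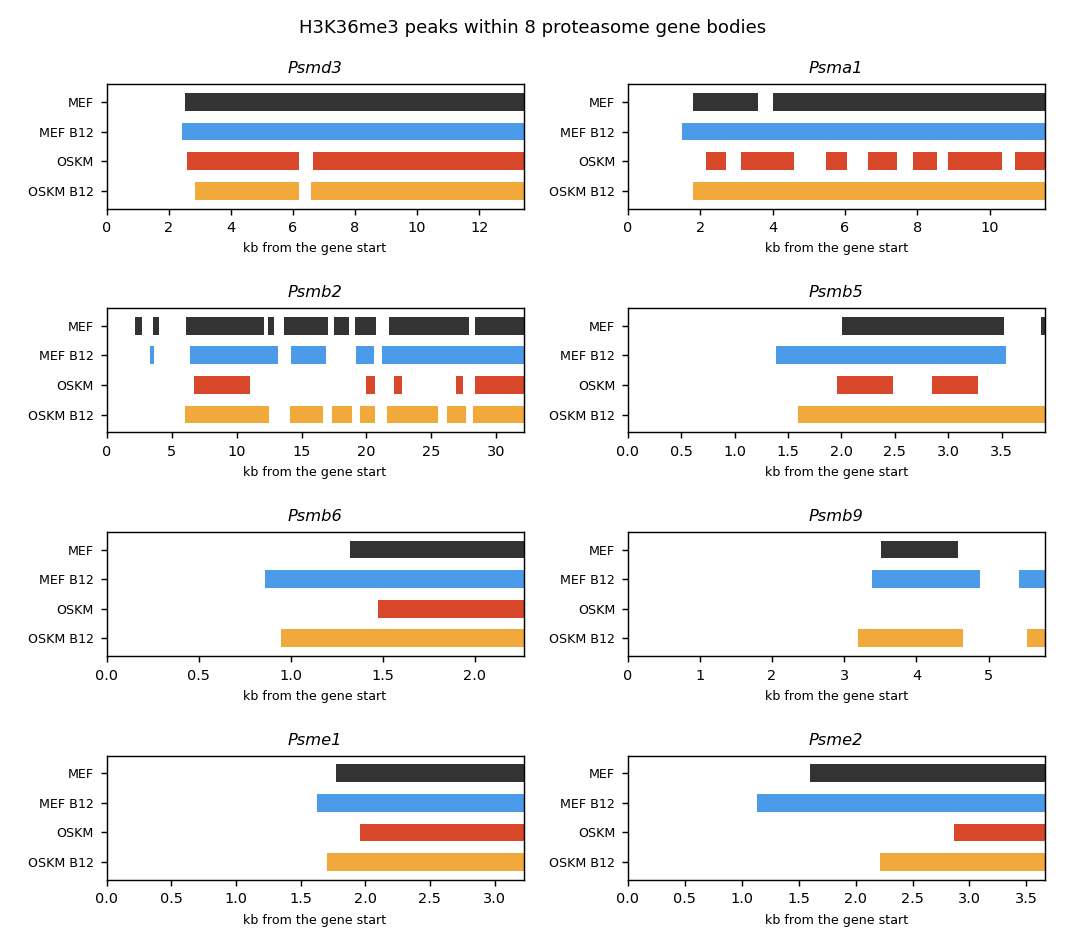
Peaks within 8 proteasome gene bodies, drawn as bars along the distance from the gene start in kb, with 1 row per library and 1 panel per gene. The bars begin downstream of the start in each panel, Psma1 and Psmb2 have gaps in OSKM that other libraries bridge, and Psmb9 has no bar in OSKM.

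The first comparison asked how the mark differed after induction of OSKM alone. The density was lower in OSKM than in MEF for all 44 genes, where 98.4% of all genes were lower, and 33 of the 44 were lower by at least 1.5-fold (75%, background 69.3%). The median log2 change was -0.73, against -0.71 over all genes, and single genes ran from -1.503 to -0.35. The covered share was lower for 43 (background 94.8%) and higher for 1, Psmb4 (background 4.66%). The ratio of the densities summed over all 49 members was 0.558 (0.545 to 0.571), against 0.547 over all 20722 protein-coding genes. The members' count was close to that of all genes, and the lower level in OSKM was as common among all genes. Less of the mark in each cell, fewer cells carrying it and a difference between the single libraries themselves cannot be told apart. Restricted to shared bases, those inside a peak of each of the 4 libraries, the median ratio was 0.726, against 0.780 over all genes. That is a plain ratio, and with 0.05 added to the density on those bases 2 members were lower by 1.5-fold (background 1.42%). When peaks below 5 in -log10 q were dropped, the summed densities gave a ratio of 0.173 (0.187 over the 20722 genes). With 0.2 in place of 0.05 added to the density 15 members passed (background 22.7%). Changes here are on the log2 scale of density plus 0.05, which makes those of weakly marked genes smaller.

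Adding vitamin B12 during OSKM induction was the second comparison. Density in OSKM B12 exceeded density in OSKM for all 44 (background 99.7%), and 42 of them by at least 1.5-fold (95.5%, background 95.7%). Psmg3 and Psma6 were the genes that did not reach that fold with 0.05 added to the density, although the plain density ratio of Psma6 was 1.59 (1.42 to 1.78). The covered share was higher for 41 (background 97.4%) and lower for 3 (background 2.23%). The median log2 change was 0.98, against 0.99 over all genes. The ratio of the densities summed over all 49 members was 2.16 (2.11 to 2.21), against 2.30 over all 20722 genes. On shared bases the median ratio was 1.56, against 1.5004 over all genes. It was 1.76 for the ATPases, which ran from 1.59 in Psmc6 to 1.99 in Psmc5. These are plain ratios, and with 0.05 added to the density on those bases 17 members passed 1.5-fold (background 25.9%). Without peaks below 5 in -log10 q the summed densities gave a ratio of 7.43 (7.503 over the 20722 genes). Comparisons with OSKM share that library, so a low value in OSKM enters both.

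In fibroblasts without doxycycline the difference with the same vitamin was smaller. The density was higher in MEF B12 than in MEF for 41 (background 91.9%) and lower for 3 (background 8.07%), with a median log2 change of 0.20, against 0.21 over all genes. Only Psmb6 passed 1.5-fold, 2.27% of the members against a background of 3.71%. The covered share was higher for 29 (background 70.9%) and lower for 15 (background 28.5%). The ratio of the densities summed over all 49 members was 1.18 (1.16 to 1.20), against 1.19 over all 20722 genes. The counting range included 1 for 11 of the 44 genes. Set side by side, OSKM B12 against MEF gave a median log2 change of 0.22, against 0.27 over all genes, with 2 genes past 1.5-fold (background 7.6%).

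**Figure D4:**
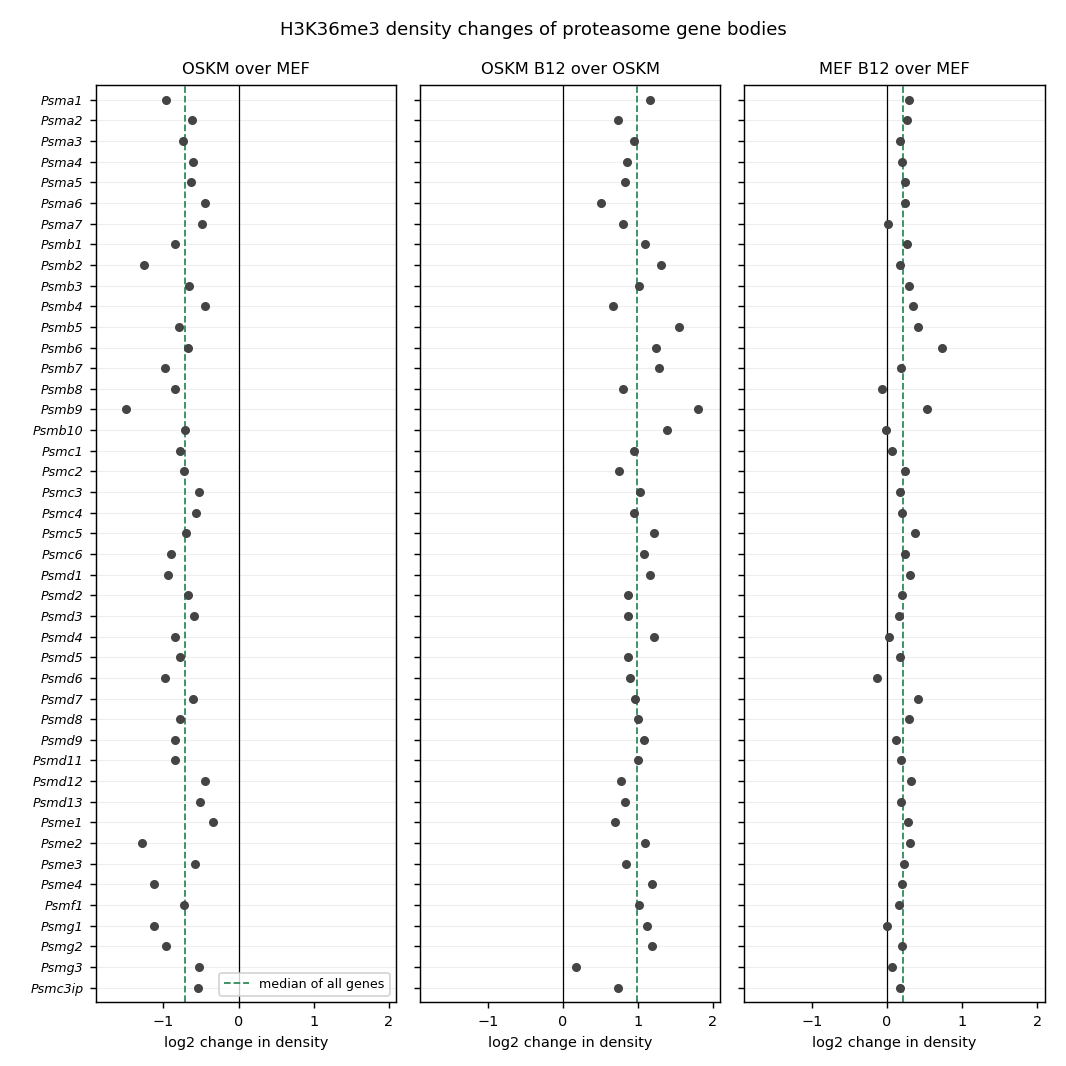
Change in H3K36me3 density (x axis, log2 of density plus 0.05) for 44 proteasome genes in 3 comparisons between single libraries, with the median of 8966 genes as a dashed green line and 0 as a black line. Points lie left of 0 in OSKM over MEF and right of 0 in OSKM B12 over OSKM, and scatter about the median of all genes in each panel.

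The catalytic subunits Psmb5, Psmb6 and Psmb7 carry the chymotrypsin-like, caspase-like and trypsin-like sites. Psmb5 was covered over 39.96% (MEF), 55.2% (MEF B12), 24.5% (OSKM) and 59.2% (OSKM B12), with densities of 0.210, 0.297, 0.0996 and 0.388. The OSKM B12 to OSKM ratio of its density was 3.89 (2.79 to 5.42), with that of Psmb10 the largest among the 44 genes, of which Psmb9 has no ratio, and on shared bases the ratio was 1.61. Psmb6 was covered over 41.6%, 62.0%, 35.0% and 58.2% in the same order, with densities of 0.312, 0.554, 0.178 and 0.488. It stood at the 52.7 percentile of all genes in MEF and at the 77.1 percentile in MEF B12, with a ratio of 1.78 (1.34 to 2.35) that rested on 78.9 and 125 estimated fragments and came to 1.19 on shared bases. In both genes the peak began closer to the start in the B12 libraries, at 861 bases in MEF B12 and 1323 in MEF for Psmb6. Psmb7, a body of 56052 bases, had densities of 0.316, 0.365, 0.135 and 0.401, and its OSKM value was the lowest of the 4.

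Promoter sequences of Psmb5 and Psmb6 are shown because both genes have the core of an antioxidant response element, TGACNNNGC, close upstream of the start, the element bound by the Nrf1 and Nrf2 factors (Nfe2l1, Nfe2l2) that control proteasome genes, while neither window overlapped a peak. They run from 250 bases before to 50 after the RefSeq start in build GRCm38.p6, with the motif in capitals. The Psmb5 window is chr14:54617946-54618245 on the minus strand and the motif begins 47 bases before the start. The Psmb6 window is chr11:70525107-70525406 on the plus strand and the motif begins 9 bases before the start.
Psmb5: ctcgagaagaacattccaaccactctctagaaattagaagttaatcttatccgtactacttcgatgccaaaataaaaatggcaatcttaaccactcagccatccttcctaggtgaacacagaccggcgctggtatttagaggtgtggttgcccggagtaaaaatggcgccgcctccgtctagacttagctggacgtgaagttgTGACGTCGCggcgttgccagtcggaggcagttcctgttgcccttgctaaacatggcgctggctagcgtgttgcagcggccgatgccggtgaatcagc
Psmb6: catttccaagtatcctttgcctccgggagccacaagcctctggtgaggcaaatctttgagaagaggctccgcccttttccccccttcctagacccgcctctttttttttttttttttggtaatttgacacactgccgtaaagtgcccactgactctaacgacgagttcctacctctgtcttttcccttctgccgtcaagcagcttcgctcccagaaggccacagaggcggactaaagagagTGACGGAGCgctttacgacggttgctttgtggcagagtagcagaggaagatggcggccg

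A RefSeq promoter was at hand for 41 of the 49 genes, 34 of them with a start within 100 bases of the body start used here. None of the 41 windows overlapped a peak in any library, where 1.15% of 15695 promoters of all genes did in MEF and 1.61% in OSKM. The motif, searched on both strands with overlaps allowed, was found in 6 of the 41 (14.6%), those of Psmd9, Psme4, Psmb6, Psmd12, Psmc6 and Psmb5, against 13.4% of all promoters. A match of letters is not a bound site.

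Further into the same gene the mark was present in all 4 libraries. Exon 5 of 6 of Psmb6, chr11:70527179-70527323 on the plus strand, is coding throughout, and its 145 bases lay in a peak in every library. Exon 5 of 6 of the inducible Psmb8, chr17:34200711-34200915 on the plus strand, had all 205 bases in a peak in every library. Both are printed as examples of marked coding sequence.
Psmb6: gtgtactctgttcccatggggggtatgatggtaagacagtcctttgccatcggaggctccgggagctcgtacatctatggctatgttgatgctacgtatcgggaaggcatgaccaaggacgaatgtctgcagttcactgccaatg
Psmb8: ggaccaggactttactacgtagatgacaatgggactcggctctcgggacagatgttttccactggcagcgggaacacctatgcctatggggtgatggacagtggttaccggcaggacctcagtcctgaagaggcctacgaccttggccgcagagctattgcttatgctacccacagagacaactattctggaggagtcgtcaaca

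The inducible subunits Psmb8, Psmb9 and Psmb10 replace the catalytic ones in the immunoproteasome, which shapes peptides for antigen presentation. All 3 had low densities. Psmb8 was at 0.208 (MEF), 0.195 (MEF B12), 0.0940 (OSKM) and 0.201 (OSKM B12), with a covered share between 21.9% and 37.9%. Psmb9 was covered over 18.5% (MEF), 32.1% (MEF B12), 0% (OSKM) and 29.2% (OSKM B12), with densities of 0.0917, 0.156, 0 and 0.124. It had the lowest log2 change in OSKM over MEF, -1.503, and the highest in OSKM B12 over OSKM, 1.80, but these values are set by the added 0.05, since OSKM listed no peak there, and its overlap with Tap1 means that its signal cannot be assigned to 1 gene. Psmb10 was at 0.137, 0.136, 0.0640 and 0.249, and its OSKM B12 to OSKM ratio was 3.89 (2.36 to 6.39) on 68.3 and 20.1 estimated fragments and came to 1.45 on shared bases. Its highest density was in OSKM B12, while MEF and MEF B12 were alike to within the counting range of 0.637 to 1.55. On shared bases the OSKM B12 to MEF ratio of Psmb10 was 1.01. Its OSKM B12 peak ran 6628 bases past the gene end, against 881 in MEF, 1542 in MEF B12 and 546 in OSKM.

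Among the other beta subunits, Psmb2 had the lowest and Psmb4 the highest OSKM to MEF ratio of those with a peak in each library. Psmb2 was covered over 73.6% (MEF), 68.6% (MEF B12), 30.4% (OSKM) and 65.2% (OSKM B12), and its OSKM density was 0.352 times that in MEF (0.320 to 0.387), with a ratio of 0.703 on shared bases. Psmb4 was covered over 51.4%, 55.4%, 58.2% and 51.1%, so its covered share was highest in OSKM, although its density there was 0.703 times that in MEF (0.537 to 0.921) and its ratio on shared bases was 0.621. The Psmb4 peak itself was 16316 bases long (MEF), 17708 (MEF B12), 3191 (OSKM) and 17283 (OSKM B12), most of it past the gene end outside OSKM, so the peak was shortest in OSKM while the part inside the body was longest. On shared bases the order of the 2 genes turned round.

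The activators open the core particle without ATP, and Psme1 and Psme2 encode the alternating subunits of 1 ring. Their genes are 6095 bases apart on chromosome 14 and point towards each other. Psme1 had densities of 0.291 (MEF), 0.364 (MEF B12), 0.218 (OSKM) and 0.383 (OSKM B12), and Psme2 had 0.322, 0.410, 0.103 and 0.276. The OSKM to MEF ratio was 0.750 (0.562 to 1.00) for Psme1 and 0.319 (0.227 to 0.450) for Psme2, so the partner genes took the highest place and, next to Psmb9, the lowest in that comparison. On shared bases the ratios were 0.861 and 0.823, and the first covered base of Psme2 lay 1603 bases after its start in MEF and 2861 in OSKM. Psme3, the nuclear activator, was at 0.584, 0.693, 0.373 and 0.710. Psme4, the activator PA200 with a body of 108636 bases, was covered over 53.3%, 54.4%, 22.9% and 54.0%, and its OSKM value was the lowest of the 4.

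In the regulatory particle, Psmd6 and Psmd12 stood at the edges of the range. Psmd12 had densities of 0.446 (MEF), 0.570 (MEF B12), 0.314 (OSKM) and 0.575 (OSKM B12), with a log2 change of -0.44 in OSKM over MEF, among the 3 nearest to 0. Psmd6 was at 0.563, 0.509, 0.262 and 0.528, the member with the lowest change in MEF B12 over MEF, -0.13, where the counting range of the ratio was 0.798 to 1.02. The 12 non-ATPases in the set had a median log2 change of -0.78 in OSKM over MEF and 0.92 in OSKM B12 over OSKM, and the 6 ATPases -0.72 and 0.99. The 7 alpha subunits gave -0.62 and 0.83 and the 10 beta subunits -0.82 and 1.26, so each role was lower in OSKM and higher in OSKM B12. Psma6, the alpha subunit with the change nearest to 0, was at 0.196, 0.240, 0.131 and 0.208.

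Psmf1, the inhibitor PI31, was covered over 54.4% (MEF), 60.8% (MEF B12), 42.9% (OSKM) and 62.6% (OSKM B12). Of the assembly chaperones, which help the alpha ring form, Psmg1 was covered over 76.2%, 67.0%, 36.9% and 68.0%. Psmg3 was covered over 37.5%, 40.4%, 34.2% and 27.5%, and with Psmb4 and Psmd3 it was 1 of the 3 genes covered less in OSKM B12 than in OSKM. Its density was nonetheless higher in OSKM B12, 0.187, than in OSKM, 0.160, a ratio of 1.17 whose counting range of 0.819 to 1.66 included 1. Psmc3ip was at 0.511, 0.581, 0.335 and 0.590, and its body overlaps Mlx.

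Other genes of the pathway, from a list of ubiquitin genes, transport factors and regulators, were also lower in OSKM and higher in OSKM B12. Of 21 on chromosomes 1 to 19, 18 reached a mean covered share of 10%, and all 18 were lower in OSKM than in MEF, 12 of them by at least 1.5-fold (66.7%), with a median log2 change of -0.66, beside 98.4%, 69.3% and -0.71 over all genes. In OSKM B12 over OSKM 17 of the 18 were higher by at least 1.5-fold (94.4%, background 95.7%), so both counts were near those of all genes. Nfe2l1, the transcription factor that raises proteasome genes when the complex is short, was covered over 51.9% (MEF), 55.1% (MEF B12), 50.8% (OSKM) and 55.3% (OSKM B12), with a log2 density change of -0.37 in OSKM over MEF. Ngly1, the glycosidase that processes it, was covered over 49.5%, 54.3%, 10.0% and 46.6%, with a change of -1.66. Pomp, the maturation factor of the core particle, was covered over 87.9%, 86.9%, 63.5% and 84.6%.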

How the data were processed

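H3K36me3 ChIP-seq and input libraries were made from MEFs of the i4F-B strain in 4 conditions, 1 library of each kind per condition. Per the study's methods and the submitters' processing notes, reads were aligned to mm10 with Bowtie 0.12.9 and broad peaks were called with MACS2 2.2.6 per H3K36me3 library, with the input of the same culture as control. The deposited peak lists give, per peak, the pileup signal (a mean over the peak, unscaled), the -log10 p and -log10 q values and the fold enrichment, a ratio over input as the authors' caller wrote it. Since 1 mean pileup stands for a whole peak, a peak reaching past a gene was taken as even along its length.

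The pileup was scaled to 1000000 H3K36me3 tags of its library and summed over the bases of each gene body lying in peaks. Estimated fragments are the pileup sum divided by the fragment length, and ranges at 95% cover counting error only; duplicates cannot be seen in peak lists. Genes with a mean covered share of at least 10% were compared on log2 of density plus 0.05, and 1.5-fold was the limit for a call. Shared bases lie in a peak in all 4 lists. Promoters came from the RefSeq table of GRCm38.p6, which has the coordinates of mm10. Members, roles and lists were chosen with earlier results of these data known. Named genes are the catalytic, inducible and tissue-restricted subunits, the 3 highest and 3 lowest members in each of 3 comparisons, the 3 densest in MEF, and others chosen after their values were seen. The code was tested on simulated data. Alternatives covered peak thresholds, scaling, bases, gene bodies, members, pseudocount and filter. Python 3.11, numpy 2.4.6, scipy 1.17.1 and matplotlib 3.10.9 were used.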

Additional observations from a re-analysis of the deposited data

Results flagged for a closer look

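For 3 members the direction of the density difference with vitamin B12 was not the same in the cultures without and with doxycycline. Each comparison set 1 library against 1, and the difference was not tested. The log2 density change in MEF B12 over MEF was -0.13 for Psmd6, -0.0715 for Psmb8 and -0.0078 for Psmb10, and in OSKM B12 over OSKM it was 0.89, 0.80 and 1.39. The counting range of the first ratio included 1 in each of the 3 genes. On shared bases the MEF B12 to MEF ratio was above 1 in each, at 1.06, 1.23 and 1.01 in the same order. A lower density in MEF B12 than in MEF was seen for 3 of the 44 (background 8.07%).

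Psmd10, the assembly chaperone gankyrin, lies on the X chromosome, outside the chromosomes used for the comparisons, and was covered over 56.4% (MEF), 58.5% (MEF B12), 19.4% (OSKM) and 47.7% (OSKM B12) of its body. Its density was 0.226, 0.230, 0.0685 and 0.209 in the same order, again with the lowest value in OSKM.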

How the results depend on the processing

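No paired analysis was possible because the labels number no replicates and each mark was profiled once per condition. The ratios of summed density (0.558 for OSKM over MEF, 2.16 for OSKM B12 over OSKM, 1.18 for MEF B12 over MEF) kept their direction under every alternative run. With peaks of -log10 q of at least 5 they were 0.173, 7.43 and 1.24, and 6 genes passed 1.5-fold in MEF B12 over MEF. Without scaling by tags they were 0.572, 1.91 and 1.05, with 2 genes. On bases in a peak in all 4 lists they were 0.726, 1.62 and 1.15, and 2, 17 and 0 genes passed. With fold enrichment the first pair were 0.574 and 2.02, and 2 genes passed in MEF B12 over MEF. In that comparison a pseudocount of 0.01 or no filter also gave 2 genes, and a pseudocount of 0.2 gave 0, with 15 in OSKM over MEF. The APPRIS principal transcripts were an alternative added after seeing the data. Over all alternative runs, 29 counts stayed within 1.5 times the reported count and 10 did not. Of the ratios, 19 stayed within their counting range and 11 did not. The cause of these shifts was not tested, apart from fewer bases or peaks entering by construction. Depth limits short genes most: Psmb10 rested on 20.1 estimated fragments in OSKM.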
